A study of Mus musculus with 7 samples.

Results

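The 10 genes described here, S100a8, S100a9, Ly6g, Csf3r, Cxcr2, Fpr1, Fpr2, Il1b, Il1r2 and Retnlg, are transcripts of late-stage neutrophils, and they were followed through RNA sequencing of mouse T-cells. They were chosen by their known place in the mature neutrophil, and the choice was made with earlier values of the ORP4L KI against WT difference in these same libraries in view. Their fold changes are therefore a description with a standard error, no p-value is given for any of them, and their counts past a threshold are printed only beside the share of all genes. They make up 10 of the 25033 genes listed in each library, and all 10 were among the 13462 genes that passed the filter for low counts.

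Neutrophils are short-lived phagocytes made in the bone marrow, where granule proteins are transcribed first and the surface receptors that steer the cell through tissue appear as it matures. S100a8 and S100a9 encode the subunits of calprotectin, a calcium- and zinc-binding complex that fills the neutrophil cytosol and acts as an alarmin once released. Csf3r, Cxcr2, Fpr1 and Fpr2 encode receptors for granulocyte colony-stimulating factor, for CXC chemokines and for formylated bacterial peptides. Il1b and Il1r2 encode an inflammatory cytokine and the decoy receptor that captures it. Most of these products are textbook features of myeloid cells, although Il1r2 is also found on some activated T-cells.

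T-cells of 4 ORP4L knock-in (KI) mice and of 3 wild-type (WT) littermates were sequenced, 1 library per mouse, all on the C57BL/6J strain and all labelled as 15 months old. The KI allele sits in the Rosa26 locus and carries the coding sequence of human ORP4L, a lipid transfer protein of the oxysterol-binding protein family, joined to 3x Flag-IRES-EGFP behind a CAG promoter and a loxP-flanked stop. An Lck-Cre transgene, active in the T-cell lineage, removes the stop, and whether the WT littermates carried that transgene is not given in the sources used here. The KI mice were moribund when sampled, so genotype and disease state cannot be told apart. The methods name both blood mononuclear cells and splenocytes as the source of mouse T-cells without assigning them to libraries, and a column kit for naive CD4+ cells without saying whether these libraries went through it. The methods also describe culture of the isolated T-cells with IL-2 and PHA, without saying whether these libraries came from cultured cells. Mice of both sexes were used in the study. As a check of the labels, the counts of Osbp2, which encodes mouse ORP4L, were 0, 0 and 1 in the WT libraries and 188, 742, 155 and 443 in the KI libraries (adjusted p = 0.0471, edgeR quasi-likelihood test), higher in all 4 KI libraries. Reads were aligned to mouse sequences while the allele is human. These counts therefore do not measure the transgene level, and human and mouse transcripts cannot be told apart in them.

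The libraries held 12918187 to 15912921 counts in WT and 16757959 to 19665679 counts in KI. In 6 libraries the 10 most counted genes took 5.23% to 7.96% of all counts. KI replicate 1 stood apart at 14.3%, with S100a9 as its most counted gene, and fold changes of named genes and medians of gene lists are also given without this library. The 15 T-cell markers were all tested, none was at 0 throughout, and none was called in either direction (0 at an unadjusted p under 0.05 by edgeR or by DESeq2). Their summed level was lowest in KI replicate 1, at 1935 CPM (counts scaled to a common library size), and highest in KI replicate 2, at 5479 CPM, with 2889 to 3848 CPM in WT. In such bulk RNA, fewer cells of a type and less RNA per cell cannot be told apart.

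The sequence just upstream of a listed start of 4 of the genes is shown because these genes behaved differently in the libraries. S100a8 and S100a9 were the most abundant, Ly6g alone was called whichever library was left out, and Csf3r had a lower mean in KI. Each run is the 250 bases before a transcription start listed for the gene, 5′ to 3′ on its strand, from RefSeq on GRCm38.p6. The Csf3r window lies inside the gene interval given below, chr4:126023441-126044975, so it precedes an internal start. S100a8 is read from chr3:90668821-90669070 on the plus strand, S100a9 from chr3:90695722-90695971 on the minus strand, Ly6g from chr15:75155011-75155260 on the plus strand and Csf3r from chr4:126024409-126024658 on the plus strand. Capitals mark matches, on either strand, to 2 motifs of factors that act in granulocyte formation, TTGCNNAA for C/EBP and GAGGAA for PU.1, which do not overlap in these windows.
S100a8: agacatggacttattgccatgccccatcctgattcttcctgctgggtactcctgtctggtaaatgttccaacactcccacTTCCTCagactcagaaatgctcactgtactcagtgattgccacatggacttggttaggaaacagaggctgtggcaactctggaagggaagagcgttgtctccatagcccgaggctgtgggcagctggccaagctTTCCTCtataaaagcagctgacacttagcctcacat
S100a9: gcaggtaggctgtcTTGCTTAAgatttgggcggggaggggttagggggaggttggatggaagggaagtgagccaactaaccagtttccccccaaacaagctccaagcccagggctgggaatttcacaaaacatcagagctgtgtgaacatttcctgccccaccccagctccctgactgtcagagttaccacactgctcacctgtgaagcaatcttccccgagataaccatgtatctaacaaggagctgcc
Ly6g: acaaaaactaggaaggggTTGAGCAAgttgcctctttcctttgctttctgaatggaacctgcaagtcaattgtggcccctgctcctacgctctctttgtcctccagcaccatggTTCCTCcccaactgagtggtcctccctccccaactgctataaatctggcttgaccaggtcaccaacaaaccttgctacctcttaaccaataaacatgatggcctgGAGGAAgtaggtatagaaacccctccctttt
Csf3r: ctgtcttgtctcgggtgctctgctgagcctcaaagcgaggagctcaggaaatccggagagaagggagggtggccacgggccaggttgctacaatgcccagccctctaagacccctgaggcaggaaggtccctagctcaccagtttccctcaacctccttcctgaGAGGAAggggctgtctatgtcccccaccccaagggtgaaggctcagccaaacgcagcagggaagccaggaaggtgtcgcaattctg

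All 10 genes matched the RefSeq promoter table by symbol, with 11 starts because Ly6g has 2. The C/EBP letters stood upstream of 3 of the 10 genes, S100a9, Ly6g and Retnlg, against 9.56% of the 32851 promoters of all 27025 genes in windows of the same length. The PU.1 letters stood upstream of 5 of the 10, S100a8, Ly6g, Csf3r, Cxcr2 and Fpr2, against 23.3% of all promoters. The 3 genes with a C/EBP match had positive log2 fold changes, as did 8 of the 10 genes. S100a8, Fpr1 and Fpr2 were among those 8 and held no C/EBP match. PU.1 matches were found both at higher genes and at Csf3r. A link between a match and a direction was not tested. Fpr1, Il1b and Il1r2 held neither string in this window. The Il1r2 window, like that of Csf3r, lies inside the gene interval given below, and the Il1b window overlaps the first bases of its gene. These matches are descriptions of letters and not of binding.

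S100a8 and S100a9 were the highest of the 10 genes in KI and showed the widest spread between KI mice. S100a8, the smaller calprotectin subunit (chr3:90669071-90670034, GRCm38.p6), stood at 529, 887 and 266 CPM in the WT libraries, in the order of their replicate numbers, after TMM scaling, which corrects each library total for composition. In KI replicates 1 to 4 it stood at 29058, 1048, 3447 and 5572 CPM. Every KI library was above every WT library, KI replicate 2 by the least. The means were 561 ± 312 CPM in WT (SD, n = 3) and 9782 ± 12983 CPM in KI (SD, n = 4). The log2 fold change was 4.12 with a standard error (SE) of 1.09, and 2.59 without KI replicate 1.

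S100a9, its partner subunit (chr3:90692630-90695721), had 1263, 2381 and 733 CPM in the WT libraries and 43934, 2253, 7282 and 11401 CPM in the KI libraries. In CPM, KI replicate 2 lay below WT replicate 2, so the groups overlapped and only 3 of the 4 KI libraries exceeded all WT libraries. That overlap depended on the scaling. By the deposited RPKM, scaled to transcript length and library total without TMM, KI replicate 2 was at 4705 and WT replicate 2 at 4560. The means were 1459 ± 841 CPM in WT (SD, n = 3) and 16217 ± 18853 CPM in KI (SD, n = 4). Its log2 fold change was 3.47 (SE 0.95), and 2.26 without KI replicate 1. The highest KI library exceeded the lowest by 27.7 times for S100a8 and by 19.5 times for S100a9, and the SD of each KI mean was larger than the mean itself.

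Ly6g and Retnlg differed in the same direction with less spread. Ly6g encodes the lipid-anchored surface protein by which mouse neutrophils are sorted (chr15:75155261-75159128). It was scarce in WT, at 12.98, 10.5 and 4.64 CPM, and reached 299.7, 29.5, 84.1 and 149.7 CPM in the KI libraries. The lowest KI library was still above the highest WT library. Mean levels were 9.37 ± 4.29 CPM (SD, n = 3) and 140.7 ± 116.8 CPM (SD, n = 4), and the log2 fold change of 3.90 (SE 0.76) fell to 3.22 without KI replicate 1. Ly6g was the only member called in each of the 7 fits that left out 1 library.

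Retnlg encodes a secreted resistin-like protein found in bone marrow and neutrophils (chr16:48872608-48874498). Its level was 137.8, 212 and 86.0 CPM in WT and 3946, 316, 706 and 1441 CPM in KI, again with no overlap between the groups. The means were 145 ± 63.6 CPM (SD, n = 3) and 1602 ± 1631 CPM (SD, n = 4). Its log2 fold change was 3.46 (SE 0.82), and 2.50 without KI replicate 1. The 4 genes S100a8, S100a9, Ly6g and Retnlg thus had the largest positive differences of the 10.

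**Figure D1:**
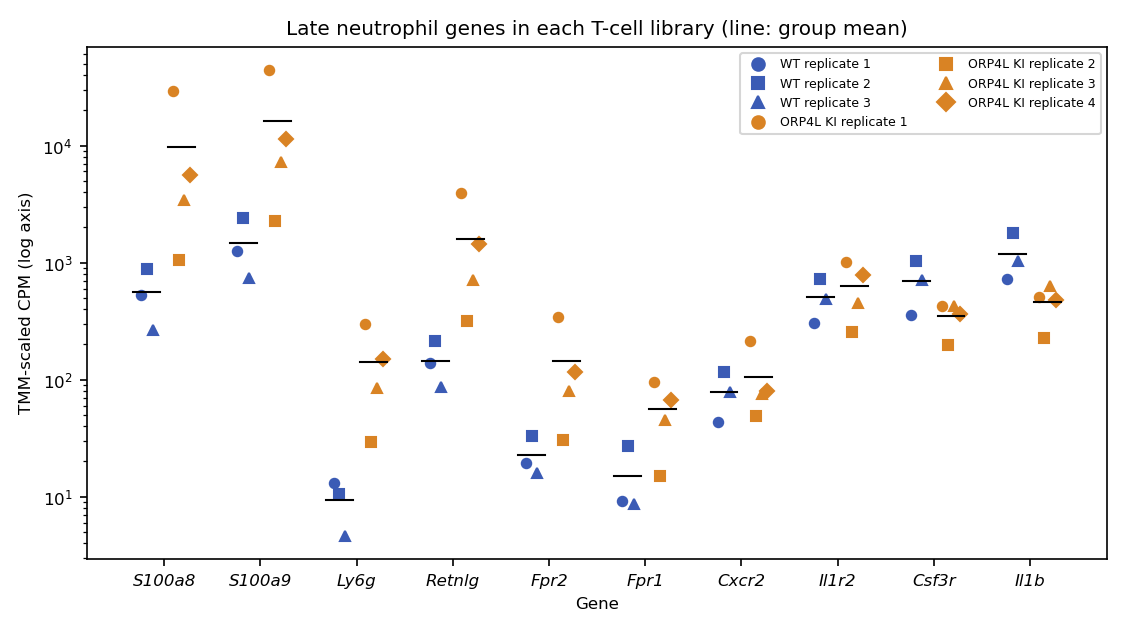
Level of each of the 10 genes in each of the 7 libraries, as TMM-scaled CPM on a log axis, with WT in blue, ORP4L KI in orange, a marker shape for each replicate number and a line at each group mean. The KI points of S100a8 run from 1048 to 29058 CPM and lie above all WT points, whereas the 4 KI points of Il1b, 226 to 632 CPM, lie below all WT points, 723 to 1789 CPM.

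The formyl peptide receptors are encoded side by side on chromosome 17 and guide neutrophils toward bacterial peptides, Fpr2 also binding annexin A1. Fpr2 (chr17:17887824-17893952) had 19.3, 32.9 and 15.9 CPM in WT and 346, 30.6, 80.0 and 116.5 CPM in KI. Only KI replicate 2 fell within the WT range in CPM. By the deposited RPKM it lay just above that range, at 25.7 against 25.3 in WT replicate 2. The means were 22.7 ± 8.97 CPM (SD, n = 3) and 143 ± 139.7 CPM (SD, n = 4). Its log2 fold change was 2.66 (SE 0.73), and 1.74 without KI replicate 1.

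Fpr1 (chr17:17876471-17883939) had 9.13, 27.1 and 8.71 CPM in WT and 96.1, 15.0, 45.3 and 66.7 CPM in KI. Here too KI replicate 2 lay inside the WT range, between WT replicates 1 and 2. The means were 15.0 ± 10.5 CPM (SD, n = 3) and 55.8 ± 34.3 CPM (SD, n = 4). The log2 fold change was 1.89 (SE 0.62), and 1.498 without KI replicate 1, and Fpr1 was called in 2 of the 7 fits that left out a library. Of the 1084 stretches of 50 bases in the Fpr2 transcript, 37.2% also occurred in a transcript of another gene, namely Gm5966, Fpr3 or Fpr1. For Fpr1 this share was 0.0784%. How the reads of such stretches were assigned is not given in the sources used here, so the Fpr2 counts are uncertain to that extent. Fpr3 was at 0 counts in all 7 libraries.

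Cxcr2 and Il1r2 differed between the groups by less than their standard errors. Cxcr2 encodes the receptor for CXCL1 and CXCL2 that draws mature neutrophils out of the marrow (chr1:74153994-74161246). It had 43.2, 115.5 and 78.8 CPM in WT and 215, 48.7, 75.6 and 79.3 CPM in KI, so that KI replicates 2, 3 and 4 lay within the WT range and KI replicate 1 above it. Its means were 79.2 ± 36.1 CPM (SD, n = 3) and 104.6 ± 74.8 CPM (SD, n = 4). The log2 fold change was 0.40 (SE 0.51), and −0.22 without KI replicate 1, so its sign depended on that library.

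Il1r2, the decoy receptor for interleukin-1 (chr1:40084692-40125230), had 307, 724 and 484 CPM in WT and 1007, 254, 455 and 784 CPM in KI. KI replicates 1 and 4 were above all WT libraries in CPM and KI replicate 2 was below them. By the deposited RPKM, KI replicate 4, at 437.9, was just below WT replicate 2, at 438.8. Mean levels were 505 ± 209 CPM (SD, n = 3) and 625.0 ± 335 CPM (SD, n = 4). Its log2 fold change was 0.31 (SE 0.46), and −0.021 without KI replicate 1. For both genes a change of either sign lies within the error at this number of mice.

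Csf3r and Il1b had lower means in KI, with an overlap between the groups for Csf3r, which was not called, and none for Il1b. Csf3r encodes the receptor for granulocyte colony-stimulating factor, which drives neutrophil production (chr4:126023441-126044975). Its level was 358, 1031 and 713 CPM in WT and 426.5, 196, 426 and 361 CPM in KI. In CPM, KI replicates 1, 3 and 4 lay between WT replicates 1 and 3, and KI replicate 2 lay below all WT libraries. By the deposited RPKM, KI replicates 1, 2 and 4, at 91.0, 54.7 and 85.0, lay below the lowest WT library, at 99.0. KI replicate 3, at 108.5, did not. Means were 701 ± 337 CPM (SD, n = 3) and 352 ± 108.5 CPM (SD, n = 4), and the log2 fold change was −0.99 (SE 0.38), and −1.10 without KI replicate 1. Of its 50-base stretches, 11.2% also occurred in transcripts of other genes. The genes sharing the most of these stretches included no related receptor, and any further genes were not examined.

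Il1b, the interleukin-1 beta precursor made by neutrophils and by monocytes and macrophages (chr2:129364569-129371164), had 723, 1789 and 1035 CPM in WT and 509.6, 226, 632 and 479.7 CPM in KI. No KI library reached the lowest WT library. The means were 1182 ± 548 CPM in WT (SD, n = 3) and 462 ± 170 CPM in KI (SD, n = 4), with a log2 fold change of −1.36 (SE 0.39), and −1.41 without KI replicate 1. Il1b and S100a8 thus moved in opposite directions in the same libraries.

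Of the 10 genes, 5 were called higher (S100a8, S100a9, Ly6g, Fpr2 and Retnlg) and 1 lower (Il1b) at the lines of the study's volcano plot, a log2 fold change beyond 1 in either direction with an unadjusted p under 0.01. The remaining 4 were not called. Across the 13462 genes tested, 320 (2.38%) were called higher and 310 (2.3%) lower. At an adjusted p under 0.05 (edgeR quasi-likelihood test, Benjamini-Hochberg over all genes tested), 3 genes in all (0.0223%) and 0 of the 10 passed, while 8 of the 10 were at an unadjusted p under 0.05, as were 13.7% of all genes. DESeq2's Wald test placed 7 of the 10 at an adjusted p under 0.05, and 5.82% of all genes. In CPM, every KI library was above every WT library for 3 of the 10, S100a8, Ly6g and Retnlg, and below for Il1b, against 866 (6.43%) and 993 (7.38%) of all genes tested. By the deposited RPKM, S100a9 and Fpr2 were above as well, and the share of all genes on that scale was not counted. The choice of the genes used this same contrast, so these counts describe them and nothing is read from their excess over all genes. Without WT replicate 1 the count of calls among the 10 was 3, and without WT replicate 3 it was 1, since S100a8, S100a9, Retnlg and Fpr2 were called in neither fit. Il1b was not called without WT replicate 2 or 3 or without KI replicate 1 or 4. Fpr1 was called without WT replicate 2 and without KI replicate 2, and Csf3r without WT replicate 1.

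**Figure D2:**
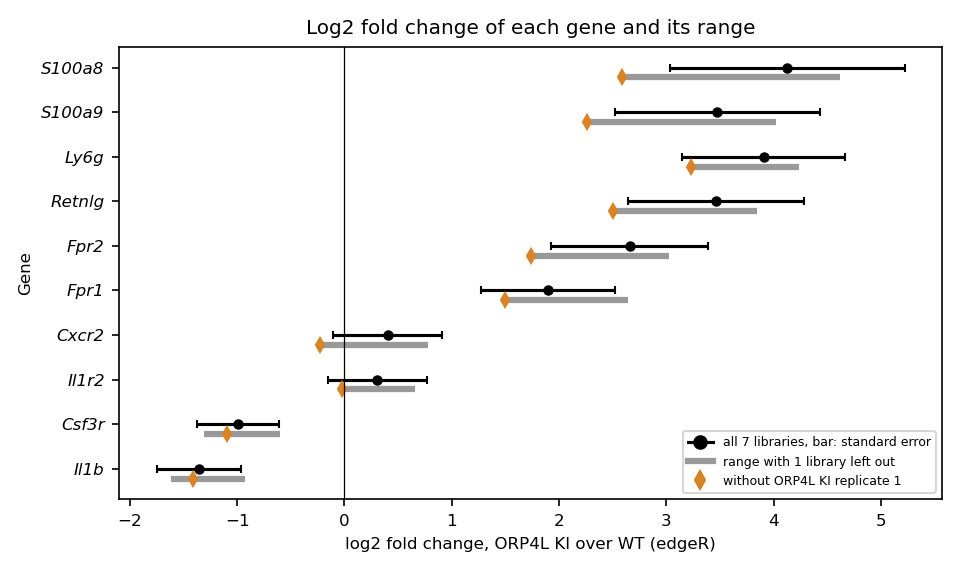
Log2 fold change of ORP4L KI over WT for each gene, with black bars for the standard error, gray bars for the range over the 7 fits that leave out 1 library, and orange diamonds for the fit without KI replicate 1. S100a8 at 4.12, Ly6g at 3.90, S100a9 at 3.47 and Retnlg at 3.46 lie farthest to the right, Cxcr2 and Il1r2 straddle 0 under these ranges, and Csf3r and Il1b stay to the left of 0.

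Among the 10 genes, the order of the mice was much the same from gene to gene. The KI libraries ranked replicate 1, 4, 3, 2 from high to low in 8 of the 10 genes, all but Csf3r and Il1b, and KI replicate 2 was the lowest KI library in all 10. WT replicate 2 was the highest WT library in 9 of 10, all but Ly6g. The share of all genes with these orders was not counted, so the orders are not read as particular to the 10. Outside the 10, Mpo, Camp and Csf1r also ran replicate 1, 4, 3, 2 in KI, while Thy1 was highest in KI replicate 2. The 10 genes together took 0.368%, 0.721% and 0.378% of all counts in the WT libraries and 6.67%, 0.481%, 1.32% and 1.88% in KI replicates 1 to 4. KI replicate 2 thus lay inside the WT range for the summed share while its Ly6g, Retnlg and S100a8 were above all WT libraries.

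Levels of different genes were compared within a library on the deposited RPKM, reads scaled to the length of the longest transcript and to the library total. S100a9 was the first of the 10 in all 7 libraries, at 1549 to 4560 RPKM in WT and 4705 to 70306 RPKM in KI. Among all genes its rank was 31, 8 and 46 in the WT libraries and 1, 4, 1 and 1 in the KI libraries. S100a8 followed in 6 libraries, and in WT replicate 3 it stood behind Il1b, at 747 against 845 RPKM. Il1b ranked 2 or 3 among the 10 in WT and 4 or 5 in KI, whereas Retnlg ranked 4 to 6 in WT and 3 in every KI library. Ly6g moved from 9 or 10 in WT to 6 or 7 in KI, past Cxcr2, which stood at 7 or 8 in WT and 9 or 10 in KI. The WT T-cell libraries therefore already held these transcripts, with Il1b at 580 to 1325 RPKM and Csf3r at 99.0 to 263 RPKM.

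Ratios of RPKM within a library do not depend on library scaling, and the pairs below were picked from the values themselves. The ratio of S100a8 to S100a9 was 0.482 to 0.557 in WT and 0.618 to 0.879 in KI, higher in all 4 KI libraries although both genes encode partners of 1 complex. Retnlg to S100a9 was 0.0765 to 0.100 in WT and 0.0770 to 0.120 in KI, ranges that overlap, while Retnlg alone varied by 12.5 times and S100a9 by 19.5 times between KI mice. Cxcr2 to Csf3r was 0.142 to 0.155 in WT, a narrow range, and 0.228 to 0.647 in KI. Il1b to its decoy receptor Il1r2 was 2.61 to 3.02 in WT and 0.618 to 1.69 in KI, so the cytokine transcript exceeded the decoy in every WT library and in KI replicates 2 and 3. Il1b to Il1rn, the gene of the interleukin-1 receptor antagonist, was 21.99 to 25.0 in WT and 10.9 to 18.5 in KI. Of the pairs in this paragraph, those from opposite ends of the set differed most, which follows from the fold changes given above. Il1b to S100a9 was 0.221 to 0.546 in WT and 0.00448 to 0.0389 in KI. Csf3r to Ly6g was 6.50 to 36.3 in WT and 0.336 to 1.57 in KI.

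**Figure D3:**
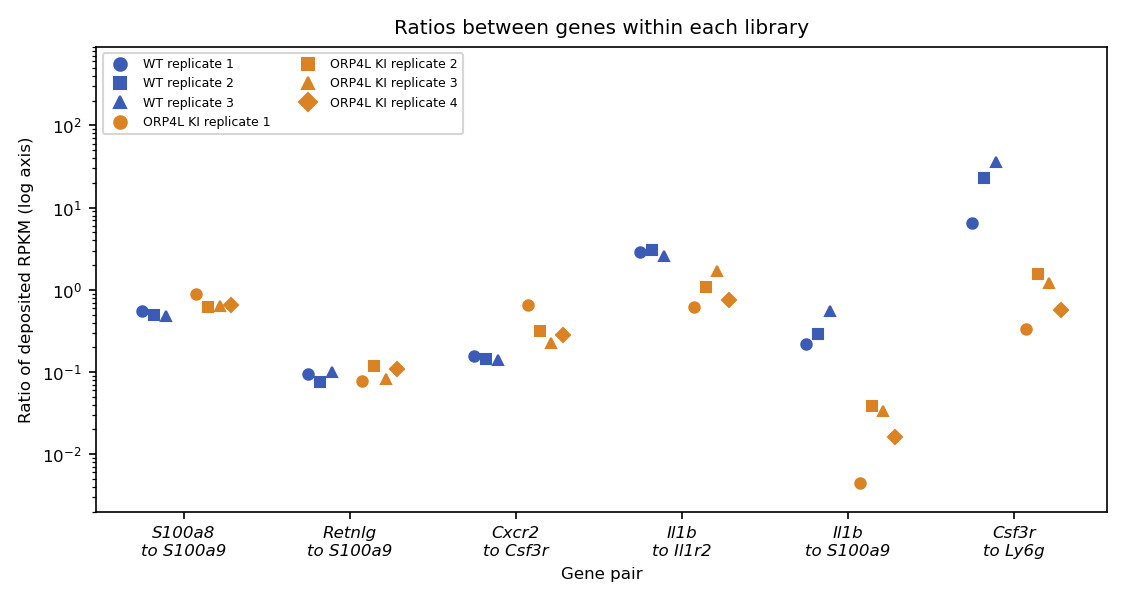
Ratio of the deposited RPKM of 6 gene pairs within each library on a log axis, with WT in blue and ORP4L KI in orange. Retnlg to S100a9 overlaps between the groups, at 0.0765 to 0.100 and 0.0770 to 0.120, whereas Cxcr2 to Csf3r lies higher and Il1b to Il1r2 lower in all 4 KI libraries.

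Likeness of the profiles over the 7 libraries was measured as the root mean square difference between centred log2 CPM values, which is smaller for more alike shapes. It is a description over 7 libraries that fall into the same 2 groups for every gene. S100a9 lay 0.23 from Retnlg and 0.27 from S100a8. Fpr1 and Fpr2 lay 0.43 apart, and Fpr2 lay 0.42 from Retnlg. Csf3r and Il1b, a receptor and a cytokine, lay 0.27 apart, and Cxcr2 and Il1r2 lay 0.32 apart. The most unlike pair was Ly6g and Il1b, at 2.59.

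**Figure D4:**
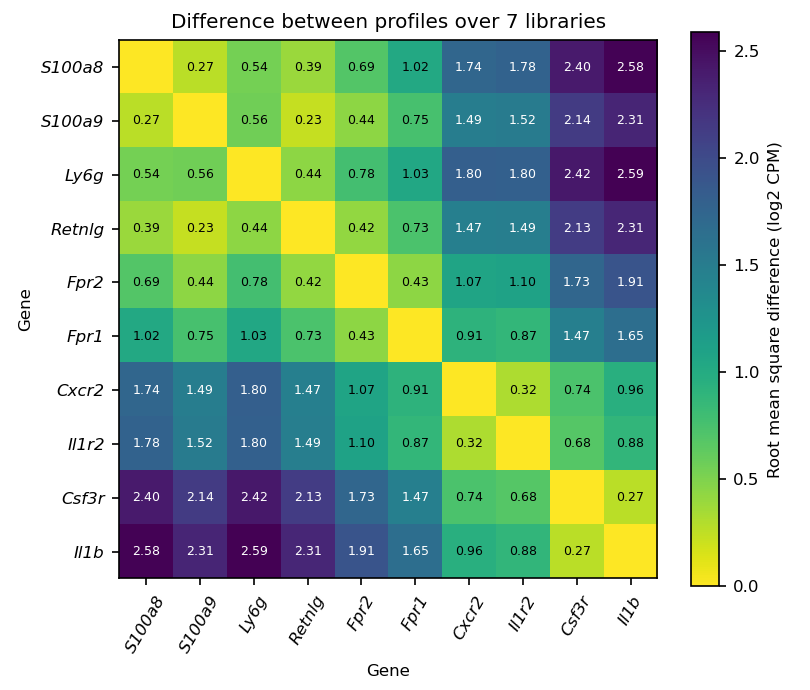
Root mean square difference in log2 CPM between the centred profiles of each pair of the 10 genes over the 7 libraries, with yellow for alike and dark for unlike. Values among S100a8, S100a9, Ly6g, Retnlg and Fpr2 run from 0.23 for S100a9 and Retnlg to 0.78 for Ly6g and Fpr2, Csf3r and Il1b pair at 0.27, and Ly6g and Il1b are farthest apart at 2.59.

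The non-member genes most alike to each member were sought among 11732 tested genes with a mean log2 CPM of at least 1. Nearest to S100a8 were Wfdc21, a secreted whey acidic protein domain factor, at 0.33, AA467197 at 0.41 and Mapk13, a p38-family kinase, at 0.43. Mapk13 (0.23), Ceacam10 (0.28) and Pglyrp1 (0.35), a peptidoglycan-binding granule protein, were nearest to S100a9, and Mapk13 (0.17), Ceacam10 (0.24) and Ifitm6 (0.25) to Retnlg. Ly6g was most like Lcn2, which binds iron carriers of bacteria, at 0.14, Lbp at 0.20 and Cd177, a neutrophil surface and granule protein, at 0.26. Fpr2 was most like Anxa1 (0.17), which encodes annexin A1, then Ltb4r1 (0.19), the leukotriene B4 receptor, and Adgrg3 (0.25). Fpr1 was most like Chil1 (0.24), Mrgpra2a (0.26) and Upp1 (0.27).

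Mapk13 was thus among the nearest genes of S100a8, S100a9 and Retnlg, and Ceacam10 of S100a9 and Retnlg. Cxcr2 was most like Rab31 (0.10), Gk (0.15) and Hacd4 (0.16), and Il1r2 was most like Clec4e (0.09), a C-type lectin of myeloid cells, A530064D06Rik (0.11) and Slc16a3 (0.13), a lactate transporter. Csf3r was most like Nod2 (0.15), a sensor of bacterial cell wall fragments, A030001D20Rik (0.17) and Tnfaip2 (0.18). Genes near to Il1b included C130050O18Rik (0.19) and Hepacam2 (0.20).

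The other mature neutrophil genes also divided. This list and those below were chosen with earlier results of these data known, so their counts and p-values are a description. Of 33 tested, 9 were called higher and 0 lower, with a median log2 fold change of 0.93 beside 0.013 over all genes tested, and values from −0.80 to 4.74. Without KI replicate 1 the median was 0.33, with 8 called higher and 1, Csf2rb2, lower. The quasi-likelihood test placed 0 of the 33 at an adjusted p under 0.05, 12 were at an unadjusted p under 0.05, and DESeq2's Wald test placed 10 of them at an adjusted p under 0.05. Between 2 (without WT replicate 3), 3 (without WT replicate 1) and 12 (without KI replicate 2) of them were called when a library was left out. The called genes were Wfdc21, Stfa1, Stfa2, Mmp8, Pglyrp1, Ltb4r1, Clec5a, Padi4 and Mmp9. Wfdc21 had 12.8, 15.0 and 4.07 CPM in WT and 863, 24.6, 87.8 and 160.2 CPM in KI, a log2 fold change of 4.74 (SE 1.19, adjusted p = 0.112, edgeR), and of 3.09 without KI replicate 1.

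The granule genes, transcribed earlier in neutrophil maturation than the receptors, were all higher in KI. All 6 primary granule genes were called higher, with a median log2 fold change of 4.53, as were all 7 secondary granule genes, with a median of 4.13, and 0 of either list passed an adjusted p of 0.05 by edgeR, while all 13 were at an unadjusted p under 0.05 and all 13 passed an adjusted p of 0.05 by DESeq2's Wald test. Without KI replicate 1 the medians were 3.44 and 3.53, and the same 6 and 7 genes were called. Ms4a3, a gene of granulocyte and monocyte progenitors, rose from 6.09, 2.39 and 0.702 CPM in WT to 355, 25.9, 48.0 and 71.8 CPM in KI (log2 fold change 5.34, SE 1.11, adjusted p = 0.0722, edgeR, and 3.97 without KI replicate 1). Camp, the cathelicidin of the secondary granule, had 253, 64.8 and 30.7 CPM in WT and 6303, 373, 1425 and 2913 CPM in KI (log2 fold change 4.57, SE 1.08, adjusted p = 0.0976, edgeR, and 3.76 without KI replicate 1). With a library left out, 4 (without WT replicate 2 or 3) to 6 of the primary and 6 to 7 of the secondary granule genes were called. Of all genes tested, 2.38% were called higher and 13.7% were at an unadjusted p under 0.05 by edgeR. DESeq2's Wald test placed 5.82% at an adjusted p under 0.05. Both lists were chosen with earlier results known, so nothing is read from their excess over these shares.

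The 10 genes were also set beside granule genes within each library. Cxcr2 to Mpo, the primary granule myeloperoxidase, was 0.280 to 3.89 in WT and 0.0684 to 0.109 in KI on the RPKM scale, lower in all 4 KI libraries. S100a9 to Mpo was 47.8 to 468 in WT and 29.1 to 81.6 in KI, and S100a9 to Ngp, a secondary granule gene, was 2.12 to 14.5 in WT and 1.58 to 3.01 in KI, both with overlapping ranges. The summed level of the 10 genes was 3403 to 7210 CPM in WT and 4417 to 79839 CPM in KI, that of the secondary granule genes 931 to 3202 and 6827 to 69800 CPM, and that of the primary granule genes 31.8 to 241 and 685 to 6073 CPM. The granule sums thus did not overlap between the groups and the sum of the 10 did, at KI replicate 2.

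**Figure D5:**
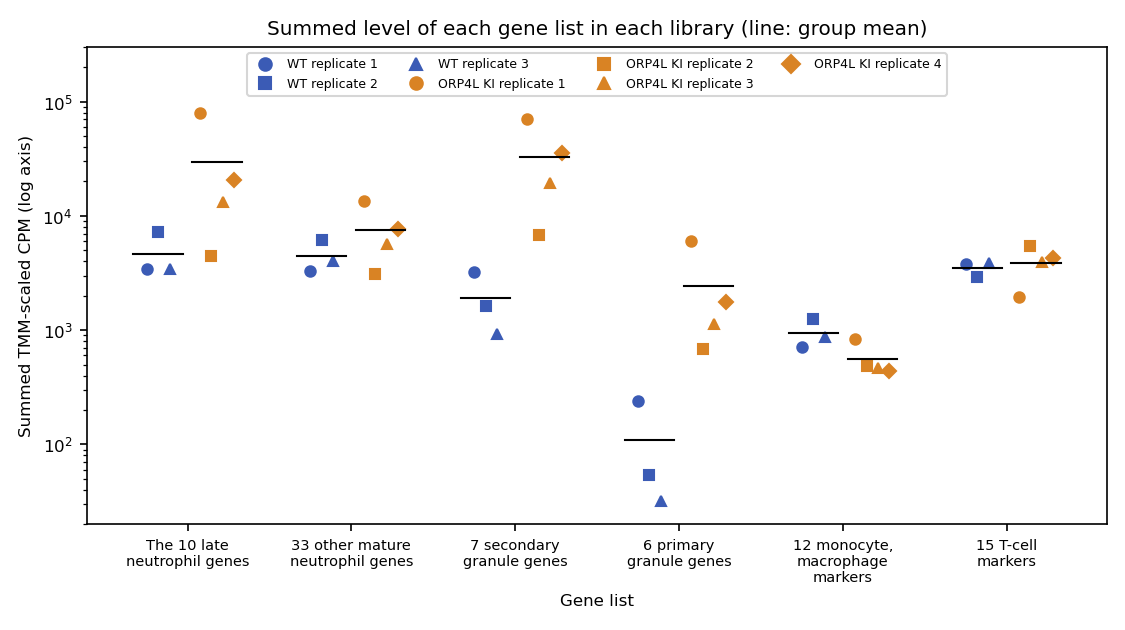
Summed TMM-scaled CPM of 6 gene lists in each library on a log axis, with WT in blue, ORP4L KI in orange and a line at each group mean. The sums of the secondary and primary granule genes do not overlap between groups, that of the 10 late neutrophil genes overlaps at KI replicate 2 (4417 CPM), and T-cell markers are lowest in KI replicate 1 (1935 CPM).

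Among ligands of these receptors, 1 of 6 tested was called higher and 0 lower, with a median log2 fold change of 0.46, and of 0.30 without KI replicate 1. The called gene was Anxa1, which had 193, 304 and 161 CPM in WT and 3226, 353, 1009 and 1430 CPM in KI (log2 fold change 2.78, SE 0.66, adjusted p = 0.100, edgeR, and 2.09 without KI replicate 1). Csf3, which encodes the ligand of the Csf3r product, was counted 8, 23 and 1 times in the WT libraries and 132, 17, 45 and 152 times in the KI libraries, a log2 fold change of 2.93 (SE 0.95), and 2.65 without KI replicate 1. It was not called by edgeR, and DESeq2's Wald test called both Anxa1 and Csf3. Cxcl2, a ligand of CXCR2, had 308, 744 and 400.1 CPM in WT and 1336, 259, 716 and 784 CPM in KI, a log2 fold change of 0.68 (SE 0.50), and 0.28 without KI replicate 1, and was not called. Anxa1 was not called without WT replicate 1 or 3, and 2 ligands were called without WT replicate 2 or KI replicate 2.

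In the interleukin-1 system, 0 of 11 genes were called, 2 were at an unadjusted p under 0.05 and 0 passed an adjusted p of 0.05 by either edgeR or DESeq2's Wald test, and the median log2 fold change was −0.096, or −0.23 without KI replicate 1. The gene of this list with the most counts, Nlrp3, the inflammasome sensor upstream of interleukin-1 beta release, had a log2 fold change of −0.54 (SE 0.27, adjusted p = 0.442, edgeR), and of −0.68 without KI replicate 1. None of the 5 receptors and co-receptors of calprotectin was called, and none was at an unadjusted p under 0.05 by edgeR or DESeq2, with a median of 0.54, or 0.17 without KI replicate 1. Cd14, the one with the most counts, had a log2 fold change of 0.45 (SE 0.54, adjusted p = 0.807, edgeR), and of 0.17 without KI replicate 1. Of 15 signalling genes downstream of the receptors, 0 were called and 1 was at an unadjusted p under 0.05, with a median of −0.018, or −0.034 without KI replicate 1. DESeq2's Wald test called 1 of them, Arrb2, an arrestin of these receptors, at 1.20 by edgeR (SE 0.39), and 0.77 without KI replicate 1. Gnai2, the inhibitory G protein subunit that couples chemokine and formyl peptide receptors and had the most counts, showed a log2 fold change of 0.20 (SE 0.28, adjusted p = 0.838, edgeR), and of −0.0032 without KI replicate 1.

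Relatives of the 10 genes gave few calls by edgeR. Of 14 other S100 genes, 8 were tested, 0 were called and 3 were at an unadjusted p under 0.05, with a median log2 fold change of 0.31, or 0.25 without KI replicate 1. DESeq2's Wald test called 1 of them, S100a6, at 1.53 by edgeR (SE 0.61), and 0.78 without KI replicate 1. S100a11, with the most counts, had a log2 fold change of 0.54 (SE 0.41, adjusted p = 0.645, edgeR), and of 0.25 without KI replicate 1. Of 9 Ly6 genes tested, with a median of 0.40, or 0.14 without KI replicate 1, 1 was called higher, Ly6c2, a surface protein of monocytes and of some T-cells, with 341, 356 and 237.5 CPM in WT and 1249, 415.5, 610.1 and 723.5 CPM in KI (log2 fold change 1.27, SE 0.37, adjusted p = 0.152, edgeR, and 0.90 without KI replicate 1). It was called only in the fits without KI replicate 2 or 3 among the 7 that left out a library. With all libraries, 4 of the 9 Ly6 genes were at an unadjusted p under 0.05 by edgeR, and DESeq2's Wald test called 3. The ratio of Ly6g to Ly6c2 on the RPKM scale was 0.0174 to 0.0338 in WT and 0.0631 to 0.213 in KI. Other members of the formyl peptide receptor and resistin families did not pass the filter for low counts. Among the lists without a call, 1 interleukin-1 gene was called without WT replicate 3, and 1 signalling gene and 2 S100 genes were called without KI replicate 2.

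Markers of other blood cells gave mixed results. All 12 monocyte and macrophage markers had negative log2 fold changes, with a median of −0.78. The median was −0.98 without KI replicate 1 and −0.36 without WT replicate 2. Of the 12, 5 were at an unadjusted p under 0.05 by edgeR, and 2 were called lower, Csf1r among them. The count of calls was 1 without WT replicate 2, 3 without WT replicate 1 or KI replicate 1 and 4 without WT replicate 3. Ly6c2, a surface protein of monocytes counted in the Ly6 list, was called higher, with a log2 fold change of 1.27. Csf1r, the receptor for macrophage colony-stimulating factor, had 228, 345 and 226 CPM in WT and 138.5, 98.3, 116.8 and 120.2 CPM in KI (log2 fold change −1.17, SE 0.22, adjusted p = 0.0655, edgeR, and −1.25 without KI replicate 1), and was not called without WT replicate 2. The summed level of the 12 was 716 to 1257 CPM in WT and 439 to 836 CPM in KI, with overlapping ranges and none of the 12 at 0 throughout. These values stand beside the lower Il1b and the lower mean of Csf3r, and their part in those was not tested. Of 7 eosinophil, basophil and mast cell markers, 2 were called higher, Prg2 and Epx, with a median of 1.499, or 1.15 without KI replicate 1, and their summed level was 17.3 to 46.0 CPM in WT and 71.4 to 869 CPM in KI. Without WT replicate 3 neither was called, and 4 markers were called without KI replicate 2. With all libraries, 4 of the 7 were at an unadjusted p under 0.05 by edgeR, and DESeq2's Wald test called 4. Prg2, an eosinophil granule protein, had a log2 fold change of 4.37 (SE 1.08, adjusted p = 0.109, edgeR), and of 3.22 without KI replicate 1. Of 6 B-cell markers, 0 were called and 0 were at an unadjusted p under 0.05 by edgeR or DESeq2, with a summed level of 274 to 494 CPM in WT and 169.6 to 516 CPM in KI. Their median log2 fold change was −0.29, or −0.55 without KI replicate 1, and Cd79a had −0.08 (SE 0.43, adjusted p = 0.964, edgeR), or −0.21 without that library. Thy1, the T-cell marker with the most counts, had a log2 fold change of 0.29 (SE 0.28, adjusted p = 0.741, edgeR), and of 0.49 without KI replicate 1, beside a median of 0.12 for the 15 T-cell markers, or 0.34 without that library. The part of cells other than T-cells in the levels of the 10 genes was not tested.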

How the data were processed

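T-cell RNA of 4 KI and 3 WT mice was sequenced on an Illumina instrument, and samples were grouped by the genotype in the labels. The authors removed adapters, aligned reads to mouse mRNA sequences with FANSe3, merged splice variants, and deposited whole-number counts per gene, not normalized. The authors also deposited RPKM values, based on each gene's longest transcript, and these served for levels between genes within a library. The counts listed were 99.8% to 99.9% of the totals the RPKM values imply. The submitters' processing notes name mm10. Coordinates and promoters come from RefSeq on GRCm38.p6, the same build, and shared 50-base stretches were counted in GENCODE M21 transcripts, which are not the authors' reference.

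The 10 genes and all gene lists were chosen with earlier results of these data known. Counts were analysed with edgeR 4.0.16 in R 4.3.3 (filterByExpr, TMM, quasi-likelihood test, no covariates) over 13462 genes, with Benjamini-Hochberg adjustment. The SE is the log2 fold change divided by the square root of F. Called genes had an unadjusted p below 0.01 with a log2 fold change beyond 1 in either direction. From each list the text names genes at an adjusted p under 0.05, otherwise the called genes with the largest rise and fall, otherwise the most abundant gene, and for each of the 10 the 3 genes of nearest profile (prior count 2). Other genes named within a list (Csf1r, Epx, Arrb2, S100a6, Cxcl2, Csf3, Csf2rb2, Il1rn, Ngp, Mpo, Fpr3, Gm5966 and the called mature neutrophil genes) and the ratios were picked after their values were seen. Of the genes covered by the naming rule, 1 is not reported here. Precision rests on 12918187 to 19665679 counts per library, and p-values measure the spread between mice. No pair of libraries agreed within sampling noise.

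Alternatives were DESeq2 1.42.0 size factors, upper-quartile and total-count scaling, no filter, 10 counts in every sample, the Wald test of DESeq2, the likelihood ratio and exact tests of edgeR, a replicate block, each library left out, thinned counts and an adjusted threshold. The fits were tested on simulated data. Tables and figures were made in Python 3.11.15 with pandas 2.3.3, NumPy 2.4.6 and Matplotlib 3.10.9.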

Additional observations from a re-analysis of the deposited data

Results flagged for a closer look

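Among 24 genes examined for a KI library far from the other 3, 4 had one. Chance flags about 1 in 20 groups, but some of the 24 were named for a large rise and their profiles are alike, so no expected count is set against the 4. In all 4 it was KI replicate 1. S100a8 was at 29058 CPM there and at 1048 to 5572 CPM in the other KI libraries. Wfdc21 was at 863 CPM against 24.6 to 160.2 CPM, and Ms4a3 at 355 CPM against 25.9 to 71.8 CPM. Thy1, a T-cell surface marker, went the other way, at 258 CPM against 514 to 547 CPM. The cause was not tested.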

How the results depend on the processing

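In 8 of 170 refits, 17 for each gene, the fold change of 1 of the 10 genes moved by more than its standard error. Without KI replicate 1 these were S100a8 (4.12 to 2.59), S100a9 (3.47 to 2.26), Retnlg (3.46 to 2.50), Fpr2 (2.66 to 1.74) and Cxcr2 (0.40 to −0.22), and without WT replicate 2 they were Fpr1 (1.89 to 2.64), Csf3r (−0.99 to −0.60) and Il1b (−1.36 to −0.93). The sign changed for Cxcr2 and for Il1r2 (−0.021), neither of them called, without KI replicate 1. The count of calls among all genes, 630, was 3 at an adjusted p under 0.05, and among the 10 genes, 6, it was 0. With the replicate block, which drops KI replicate 4 for want of a partner, 3 of the 10 and 466 genes in all were called. The same-number libraries correlated at 0.150, −0.535 and −0.0018, beside −0.393 to 0.510 for pairs of different number. So few pairs cannot decide whether same-number libraries share more than a number. Leaving out 1 library gave 328 to 805 calls among all genes (328 without WT replicate 2), 1 to 7 among the 10 (3 without WT replicate 1, 1 without WT replicate 3) and 18 to 38 among the 140 other listed genes, 28 with all libraries (18 without WT replicate 3). Scaling by total counts alone shifted the median of all genes by −0.142 and the split from 320 higher and 310 lower to 275 higher and 407 lower. The adjusted count depended on the tool, 784 with DESeq2's Wald test, 682 with the exact test and 706 with the likelihood ratio test, and was 176 without a filter, 113 with total counts, 48 with the block, 44 with upper-quartile scaling, 12 with thinned counts and 0 with 10 counts in every sample (1549 at an unadjusted p under 0.05). It was 342 without KI replicate 2, 2 without KI replicate 1, 1 without KI replicate 3, and 0 without KI replicate 4 or any 1 WT library (1260 to 1759 at an unadjusted p under 0.05). The order of the 10 genes by mean level in each group was the same by TMM-scaled counts per kilobase. Both scales use the same transcript lengths, so the order within a library could not differ between them. The cause of these shifts was not tested. With counts thinned to the smallest library, 6 of the 10 were called.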
